A study of Brassica juncea with 4 samples.

Results

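The 4 small RNA sequences named miR164 or MIR164 were described in the floral buds of cytoplasmic male-sterile (CMS) and maintainer fertile (MF) Brassica juncea, together with the transcripts that the degradome assigned to them. They were taken by name, with both arms of each hairpin, and with earlier results of these data known. They made up 5 of the 288 named entries of the miRNA table, which held 248 distinct sequences. Entries ath-miR164a and ath-miR164b had the same sequence and the same reads, were joined, and are called miR164a here. The degradome tables linked these miRNAs to 4 of 446 genes, with 7 of 768 table lines in CMS and 10 of 838 in MF.

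The study set buds of a CMS line against buds of its maintainer line by sequencing small RNAs and, in separate libraries, the 5′ ends of cut polyadenylated transcripts (the degradome). The CMS line came from an interspecific cross in which B. rapa gave the cytoplasm, followed by repeated backcrossing to fertile B. juncea, and the MF line was that fertile B. juncea kept by selfing. Each sample held all floral buds of an inflorescence, pooled from several plants, so bud stages were mixed and no single floral organ was isolated. There was 1 library per line and assay, so every test compared libraries and not lines, every interval covered counting error only, and no difference had a replicate check.

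In plants, miR164 guides ARGONAUTE1 to cut mRNAs of a subgroup of NAC transcription factors. Among its targets in Arabidopsis are CUP-SHAPED COTYLEDON1 (CUC1) and CUC2, which mark the boundaries between organ primordia and keep neighbouring organs apart. Loss of the Arabidopsis gene MIR164c gives flowers with extra petals, and other NAC targets act in lateral root growth (NAC1) and in leaf ageing (ORE1).

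The mature sequences are shown first because the comparison of lines turned on a single base between them. Each is written from its 5′ end as deposited, with T for U, and the capitals mark the seed, bases 2 to 8.
ath-miR164a: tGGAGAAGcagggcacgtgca
ath-miR164c: tGGAGAAGcagggcacgtgcg
ath-MIR164c-p3: cACGTGTTctactactccaac
ath-MIR164b-p3: tTAGTTCTtcatgtgcccatcttc
The first 2 were 5′-arm products of 21 nt that shared the seed GGAGAAG and differed by the substitution A21G, with positions counted from 1 at the 5′ end. No other sequence among the 248 had that seed. The other 2 came from the 3′ arms of the MIR164c and MIR164b hairpins. MIR164c-p3 had 21 nt and MIR164b-p3 had 24 nt, and both were marked in the deposited table as not listed in miRBase.

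The hairpins were assigned on the Arabidopsis genome, build TAIR10, and not on a Brassica genome. The deposited positions were chromosome 2, 19520751 to 19520864 for MIR164a, chromosome 5, 287565 to 287736 for MIR164b, and chromosome 5, 9852667 to 9852781 for MIR164c, all on the plus strand. The MIR164a and MIR164c hairpins are printed with the sequenced arms in capitals, because they could give the 5′-arm products that differ in the last base.
ath-MIR164a: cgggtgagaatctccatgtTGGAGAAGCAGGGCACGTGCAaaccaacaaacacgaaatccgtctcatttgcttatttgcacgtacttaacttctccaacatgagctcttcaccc
ath-MIR164c: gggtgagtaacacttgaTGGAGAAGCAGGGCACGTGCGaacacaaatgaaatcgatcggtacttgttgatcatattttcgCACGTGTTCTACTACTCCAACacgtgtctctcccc
In the deposited fold of MIR164c, 15 of the 21 bases of miR164c paired with bases of MIR164c-p3, and each strand ran 2 nt past its partner at the 3′ end. That is the shape of a duplex cut from a plant hairpin. In MIR164b, 13 of the 21 bases of the 5′-arm product paired with MIR164b-p3, and neither 3′ end reached past its partner. No 3′-arm sequence was listed for MIR164a, and reads of miR164a cannot be divided between MIR164a and MIR164b.

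The small RNA libraries differed in depth and make-up. CMS gave 3339182 raw reads, of which 3192676 (95.6%) were mappable, and MF gave 11845753, of which 7331757 (61.9%) were mappable. The entries summed to 105033 miRNA reads in CMS and 90880 in MF over distinct sequences. The deposited normalized values were close to raw reads times 1.12 in CMS and 0.896 in MF, the factors recovered from miR319a. For the miR164 entries the gap reached 0.63, so the authors' scaling may not be a single factor per library. Ratios between lines use these factors unless stated. Scaling by mappable reads in their place would add 0.88 to every log2 ratio, and scaling by total miRNA reads would take off 0.52.

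The 5′-arm products moved in opposite directions between the libraries. miR164a had 423 raw reads in CMS and 283 in MF, and miR164c, 1 base apart from it, had 46 raw reads in CMS and 114 in MF. After the authors' normalization the values were 472 in CMS against 253 in MF for miR164a, and 51 in CMS against 102 in MF for miR164c. The log2 ratio of CMS over MF was 0.90 for miR164a (95% exact binomial interval 0.68 to 1.12) and -0.99 for miR164c (-1.52 to -0.49). Both passed the 3 tests that the study names, run here over all entries. Fisher's exact and chi-squared tests were each held to its limit of 0.01, and the Audic-Claverie probability to 3.47e-05, which is 0.01 divided by 288 entries, a division chosen here and not stated in the study's methods. The Audic-Claverie values were 3.98e-17 for miR164a and 5.89e-06 for miR164c. Each is the probability of the single observed outcome and not of a tail. With a two-sided tail in their place, miR164a stood at 3.39e-16. miR164c stood at 3.38e-05, just under the limit of 3.47e-05.

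The 3′-arm products were rare. MIR164c-p3, the strand opposite miR164c, had 15 raw reads in CMS and 1 in MF, a log2 ratio of 4.22 with an interval of 1.52 to 9.62. It passed the 3 tests narrowly, with an Audic-Claverie value of 3.43e-05 beside the limit of 3.47e-05, and lost the call when that value was replaced by a two-sided tail (1.45e-04) or when reads were scaled by total miRNA reads. MIR164b-p3 had 0 reads in CMS, which allows up to 3 counts equal to 0.940 RPM (reads per 1000000 mappable reads), and 3 reads in MF, so no ratio was formed. In all, 2 of the 4 sequences, miR164a and the borderline MIR164c-p3, passed the tests as higher in CMS and 1 as lower. Over all 248 distinct sequences, 12 (4.84%) passed as higher in CMS and 22 (8.87%) as lower.

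**Figure D1:**
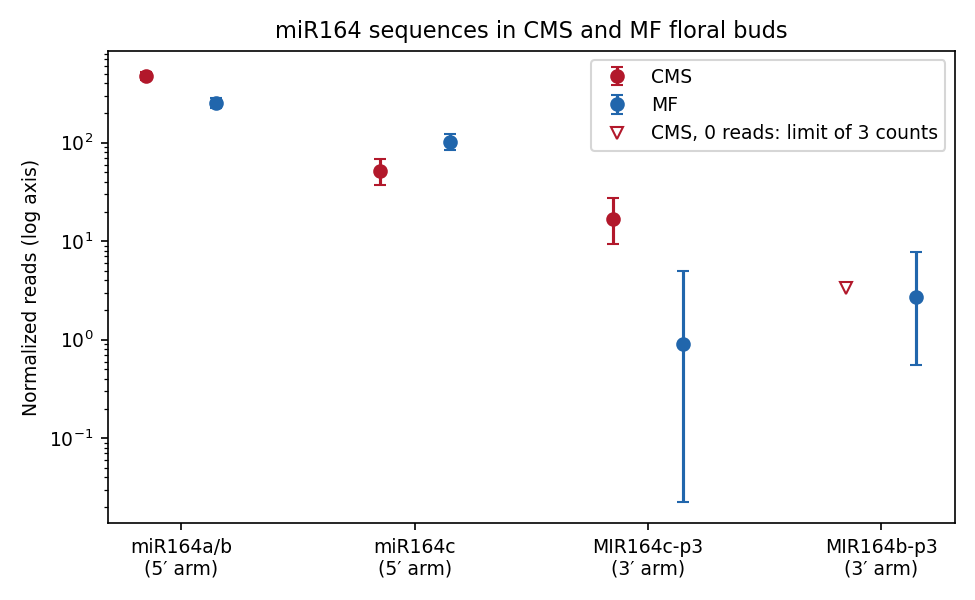
Normalized reads (raw reads times the library's factor, log axis) of the 4 miR164 sequences in CMS (red) and MF (blue), 1 library each, with 95% Poisson intervals as bars; the open triangle is the limit that 0 reads allows. miR164a and MIR164c-p3 lie higher in CMS, miR164c lies lower in CMS, and MIR164b-p3 stays at 3 reads or fewer in each library.

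miR164a stayed higher in CMS under every scaling that was run, whereas the direction of miR164c depended on the scaling. In RPM of mappable reads, miR164a stood at 132 in CMS and 38.6 in MF, and miR164c at 14.4 in CMS and 15.5 in MF, so that miR164c was nearly level on that scale (log2 -0.11, past none of the limits). Scaled by the raw reads of each library, the log2 ratio of miR164c was 0.52, higher in CMS. Scaled by total miRNA reads, of which miR319a took the largest part, miR164a stood at log2 0.37 and missed the limit, with an Audic-Claverie value of 5.11e-05, while miR164c stood at -1.52 and passed it. Scaled by total miRNA reads, MIR164c-p3 also missed the limit, with an Audic-Claverie value of 2.29e-04 at a log2 ratio of 3.70.

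A minimum of 20 reads summed over CMS and MF, with reads present on each side, left 86 sequences, of which 10 had a higher log2 ratio than miR164a and 75 a lower one. For miR164c, 64 were higher and 21 lower, beside a median of -0.03 over all 86. miR164a stayed short of a 2-fold change, and miR164c lay at it, with normalized values of 51 in CMS and 102 in MF and 1.99-fold lower in CMS by raw reads times the factors. Counting also those with reads on a single side, 88 sequences met the minimum, of which 8 (9.09%) were at least 2-fold higher in CMS and 23 (26.1%) at least 2-fold lower. MIR164c-p3, with 16 reads in all, fell under that read minimum. It had the highest ratio of the 153 sequences with a read on each side.

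**Figure D2:**
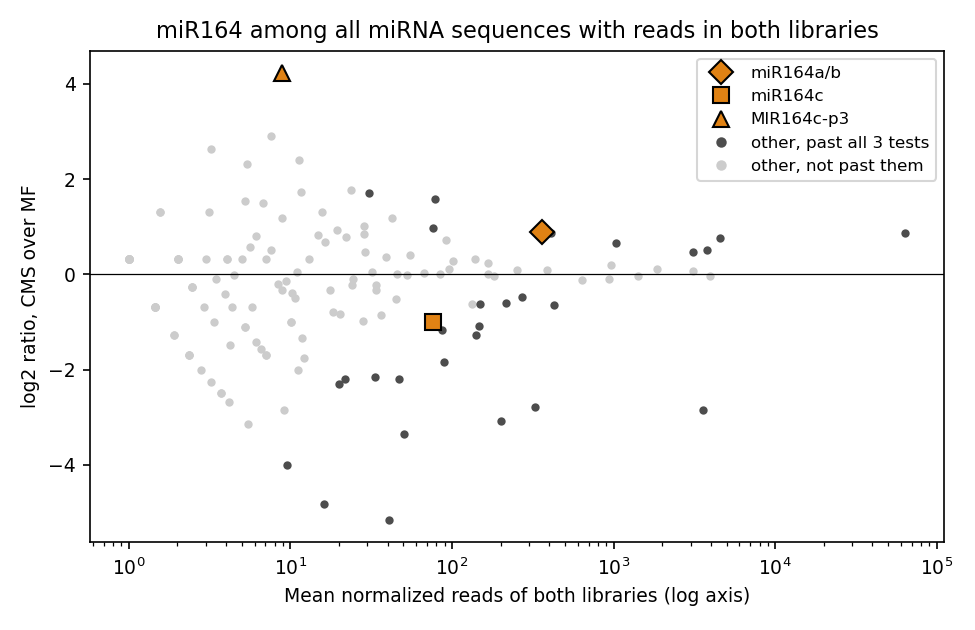
The log2 ratio of CMS over MF (vertical axis) against the mean normalized reads of both libraries (horizontal log axis) for each distinct miRNA sequence with reads in both; dark points passed all 3 tests. miR164a (diamond, 0.90) lies above 0, miR164c (square, -0.99) below it, and MIR164c-p3 (triangle, 4.22) stands far above but on 16 reads.

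The sequences whose log2 ratio lay nearest to each member were listed by distance in log2 ratio, over 84 sequences outside the family that met the minimum of 20 reads and had reads on each side. For miR164a these were ath-miR390a (0.87, with 473 raw reads in CMS and 323 in MF), ath-miR319a (0.87, with 74029 in CMS and 50580 in MF) and ath-miR172b*_R+1 (0.93, with 23 in CMS and 15 in MF). The first acts in trans-acting siRNA formation and the second represses TCP transcription factors. For miR164c the nearest were pta-MIR1310-p3 (-0.99), PC-3p-25 (-1.01) and osa-miR5083_R-1 (-1.01), each with at most 42 reads in a library. For MIR164c-p3 the closest of the 84 was ath-MIR396a-p3 at 2.40, with 17 raw reads in CMS and 4 in MF, although MIR164c-p3 itself did not meet the minimum. Among rarer sequences ath-MIR157a-p3, named after its values were seen, was closer, at 2.90, with 12 raw reads in CMS and 2 in MF. With 1 library per line, a like ratio is a likeness over a single pair of values.

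Within each library, the share of miR164c in the reads of miR164a and miR164c together was 9.81% in CMS (exact binomial 95% interval 7.27 to 12.9) and 28.7% in MF (24.3 to 33.4). The odds of reading the miR164c end over the miR164a end were thus 0.270 times as high in CMS as in MF (exact conditional interval 0.182 to 0.398; two-sided Fisher's exact test, p = 8.56e-13). This ratio needs no scaling, because both counts come from the same library. It was chosen with the reads of these entries known, so its p-value describes these libraries only.

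Other pairs of miRNA sequences of 1 length that differed at a single base, each with at least 20 reads in all, were treated in the same way. There were 15 such pairs, some of which shared a sequence, and with p-values adjusted by the Benjamini-Hochberg method over all 15 the share of the rarer sequence was lower in CMS in 7 (46.7%), higher in 2 and not called in 6. The adjusted p of the miR164 pair was 4.28e-12. In 3 of the pairs, miR164a with miR164c among them, the commoner sequence passed the level tests as higher in CMS and the rarer one as lower. The other lower pairs held rarer variants of the abundant miR319a, miR159a, miR166a and miR167a. For instance, the sequence named ahy-miR159_1ss7TC made up 0.117% in CMS and 0.973% in MF of the reads it formed with miR159a, and gma-miR166a-3p_1ss21CT made up 0.0621% in CMS and 0.619% in MF of the reads it formed with miR166a. Of the 9 pairs that differed at the last base, 6 were lower in CMS, 1 was higher and 2 were not called. The shares of these variants of miR319a, miR159a, miR166a and miR167a thus moved in the same direction as that of miR164c. Not every pair did. The share of miR166a beside the abundant miR165a was level (odds ratio of CMS over MF 0.977). Those of miR396a beside miR396b (1.83) and aly-miR845a beside ath-miR845a (2.23) were higher in CMS. The part of such variants in the miR164c result was not tested.

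**Figure D3:**
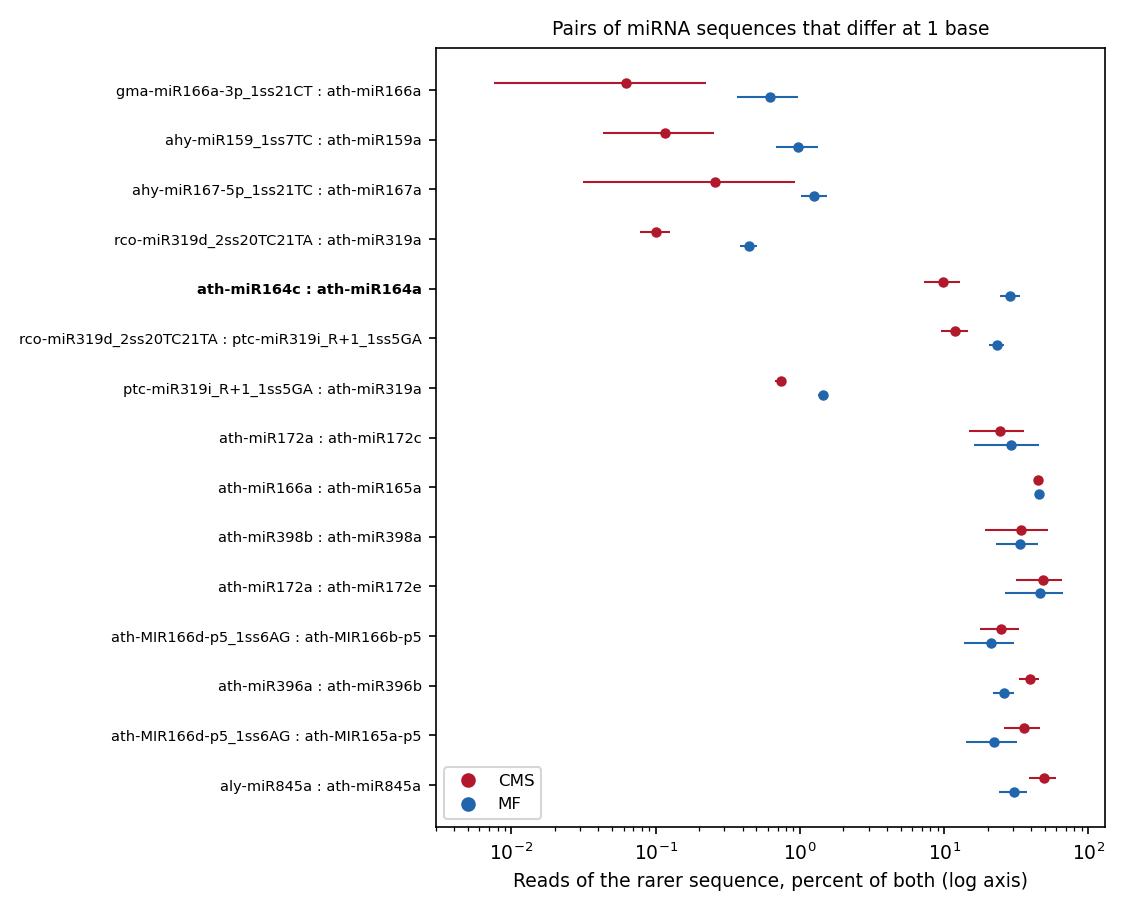
Share of the rarer sequence in the reads of each of 15 pairs that differ at 1 base (horizontal log axis, percent, with exact binomial 95% intervals), in CMS (red, upper point) and MF (blue, lower point); each label gives the rarer sequence first. The miR164c share (bold) is 9.81% in CMS and 28.7% in MF, and several pairs above and below it show a lower share in CMS too.

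The balance between the arms assigned to the MIR164c hairpin also differed. That hairpin is the Arabidopsis one, so reads from different B. juncea loci could not be told apart. MIR164c-p3 made up 24.6% of the reads of both arms in CMS (15 of 61 reads; interval 14.5 to 37.3) and 0.870% in MF (1 of 115 reads; interval 0.0220 to 4.75). The odds ratio of CMS over MF was 36.5, with an interval of 5.32 to 1578 that shows how little the single MF read fixes it (two-sided Fisher's exact test, p = 4.15e-07). This odds ratio too was chosen with the reads of these entries known, so its p-value describes these libraries only. In raw reads, miR164c had fewer in CMS and its opposite strand more.

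Most other hairpins showed no called difference in arm balance. Among 25 hairpin arm pairs with at least 10 reads on each arm, the share of the rarer arm was higher in CMS in 5 (20%) and lower in 3, with Fisher p-values adjusted over the 25, and 17 were not called. Some of these pairs shared a sequence, whose reads cannot be divided between hairpins. The adjusted p for MIR164c was 5.18e-06. Its odds ratio was the third highest, after those of MIR319b and MIR156a, which had a count of 0 in a library. Each of those 2 also had 1 arm whose sequence was shared with other hairpins. MIR396a, whose miR396 products repress growth-regulating factors, moved the same way on similar reads, with the rarer arm at 14.7% in CMS (17 of 116 reads) and 3.77% in MF (4 of 106 reads). The MIR159a hairpin moved the other way, with its rarer arm at 0.213% in CMS and 1.59% in MF.

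**Figure D4:**
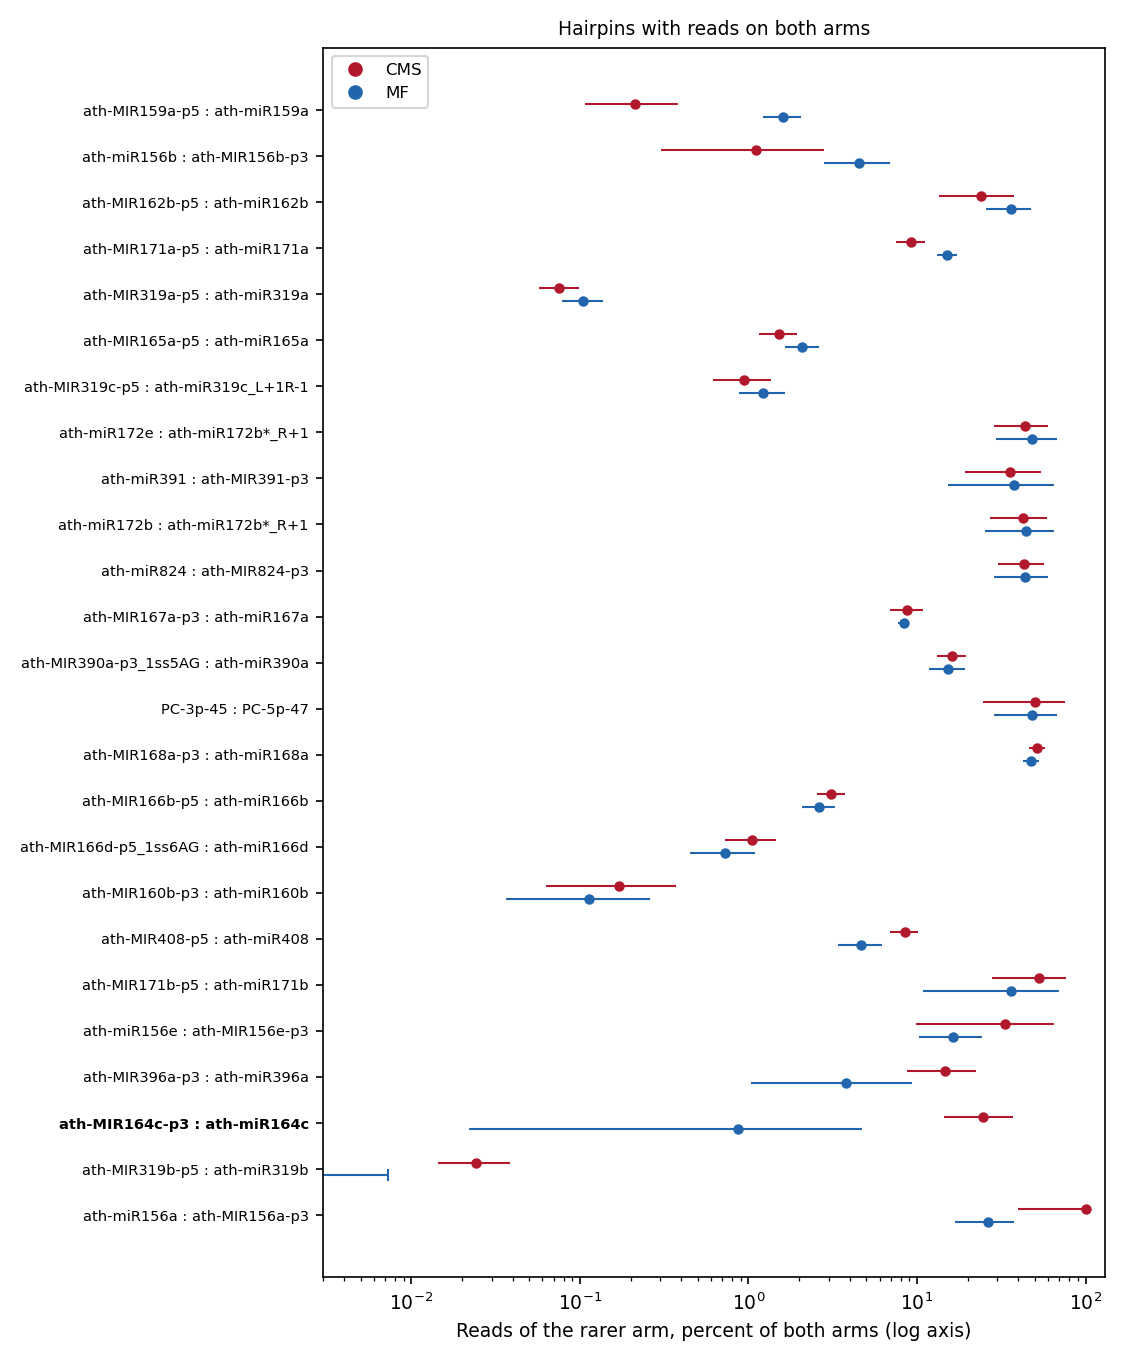
Share of the rarer arm in the reads of both arms for 25 hairpin arm pairs (horizontal log axis, percent, with exact binomial 95% intervals), in CMS (red, upper point) and MF (blue, lower point), sorted by odds ratio; each label gives the rarer arm first. MIR164c-p3 (bold) is at 24.6% in CMS and 0.870% in MF, with intervals that do not overlap.

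The make-up of the family differed between the libraries, while its share of miRNA reads was alike. The family held 484 raw reads in CMS and 401 in MF, which was 0.461% of miRNA reads in CMS (interval 0.421 to 0.504) and 0.441% in MF (0.399 to 0.487). The intervals of these shares overlapped. However, miR319a, itself at a log2 ratio of 0.87, made up most of the miRNA reads, with 74029 in CMS and 50580 in MF. Scaled by total miRNA reads without miR319a and miR319b, the summed family reads stood at a log2 ratio of 0.65, so the alike share depended on miR319a. With the authors' factors, the summed reads stood at a log2 ratio of 0.59 (0.39 to 0.78). Within the family, miR164a made up 87.4% of reads in CMS and 70.6% in MF, miR164c 9.50% in CMS and 28.4% in MF, and MIR164c-p3 3.10% in CMS and 0.249% in MF.

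The degradome gave reads at the site of CUC1 (AT3G15170, chromosome 3, 5109883 to 5111447, forward strand, TAIR10) in both lines. CUC1 specifies organ boundaries, and its transcript AT3G15170.1 of 974 nt was aligned with the miRNA at positions 664 to 684. The cut was listed at position 675, opposite base 10 of the miRNA, where ARGONAUTE slices. Every miR164 site was listed opposite base 10, so this position is no separate evidence of slicing. There were 15 reads at this position in CMS and 5 in MF, and CleaveLand placed it in category 0 in both libraries, the class in which the cut site is the single highest position on the transcript. The CleaveLand p-value listed was 0.00380 in CMS and 0.00496 in MF. The site was listed for miR164a, miR164b and miR164c with an equal alignment score of 3, so the reads cannot be credited to either 5′-arm product.

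In RPM of the reads mapped to Arabidopsis cDNA, the CUC1 site stood at 3.02 in CMS (Poisson 95% interval 1.69 to 4.98) and 0.648 in MF (0.210 to 1.51). The ratio of CMS over MF was 4.66, with an interval of 1.61 to 16.4 (two-sided exact binomial test, p = 0.00192, and 0.0334 after Benjamini-Hochberg adjustment over 662 gene and site pairs, with a pair listed in 1 library entered as 0 reads in the other). By that rule 35 pairs (5.29%) were higher in CMS and 8 (1.21%) lower, and some of these were transcripts of the same gene. The call rested on the scaling, since the CMS library had fewer mapped reads, 4967302 against 7717843 in MF. With the reads taken as deposited the ratio was 3 and the adjusted p was 0.403. Scaled by the reads at all listed sites, 5985 in CMS and 5116 in MF, the log2 ratio was 1.36 and the adjusted p was 0.523.

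The CUC1 site was also not apart from other sites. Of 32 gene sites listed in both libraries with at least 20 reads in all, with sites of a gene that had the same reads joined, the median ratio of CMS over MF was 2.51, and 9 had a higher ratio than CUC1. The number of cut ends reflects both how much transcript is present and how much of it is cut, and no transcript levels were measured in these libraries.

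**Figure D5:**
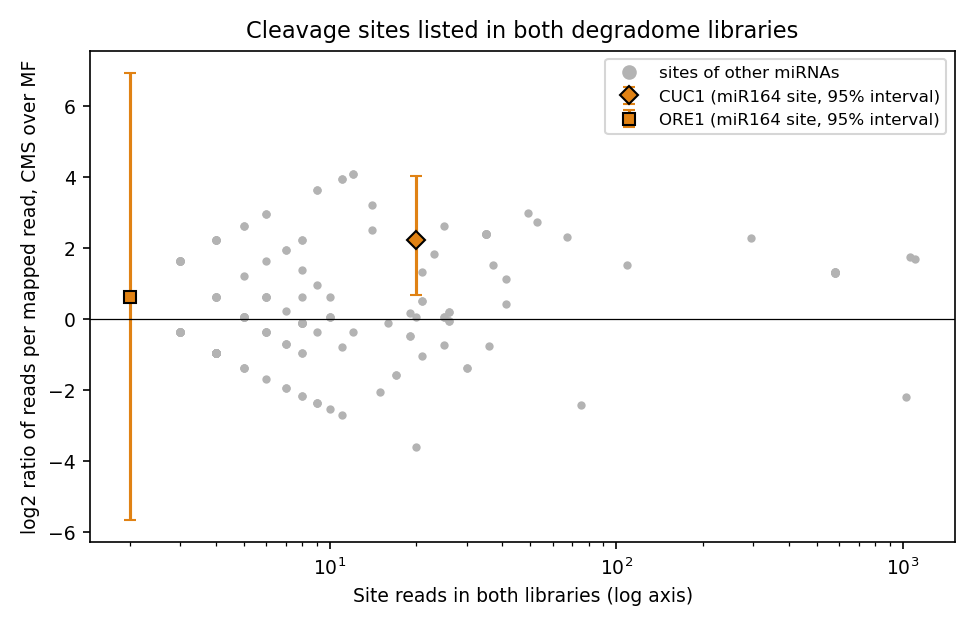
The log2 ratio of site reads per mapped read, CMS over MF (vertical axis), against the site reads in both libraries (horizontal log axis) for each gene and site pair listed in both; points of a gene's transcripts can lie on each other. CUC1 (diamond, 20 reads) stands at 2.22 with an interval of 0.69 to 4.04, among other sites of like ratio, and ORE1 (square, 2 reads) has an interval that spans 0.

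The other 3 genes had a single read each in any library and CleaveLand category 4, the class for positions with only 1 read. ORE1 (AT5G39610, also named ANAC092, a regulator of leaf senescence) had 1 read in CMS and 1 in MF at position 781 of AT5G39610.1. This gene was listed for miR164c alone, with an alignment score of 3.5. ANAC100 (AT5G61430) had 1 read in CMS, at position 851, and was not listed in MF. ANAC080 (AT5G07680) was not listed in CMS and had 1 read in MF, which was placed on both of its transcripts, at position 854 of AT5G07680.1 and 662 of AT5G07680.2. At ANAC100 and ANAC080 the alignment score, a penalty in which lower is better, was 1.5 for miR164a and 2 for miR164c. These sites too were listed with the cut opposite base 10 of the miRNA, which is no separate evidence of slicing. A single read cannot show a difference between lines.

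Of 8 NAC genes looked up in the tables, 4 were listed in at least 1 library, with 3 in CMS and 3 in MF. The 4 that were not listed in either were CUC2 (AT5G53950), NAC1 (AT1G56010), AT3G12977 and CUC3 (AT1G76420), the last of which lacks a miR164 site. CUC2 acts beside CUC1 at organ boundaries, and NAC1 is known for its place in auxin signalling in roots. A gene not listed may still be cut below the depth of these libraries, in which 1 read equalled 0.201 RPM in CMS and 0.130 in MF. The reads were also mapped to Arabidopsis cDNA, so a B. juncea site that differs from it may go unlisted. No site was listed for MIR164c-p3 or MIR164b-p3. With category 4 left out, or with CleaveLand p-values under 0.05 required, CUC1 was the only miR164 site that stayed, in CMS as in MF.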

How the data were processed

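Small RNA and degradome libraries of CMS and MF floral buds were used, 1 per line and assay. Per the labels and the study's methods, the authors sequenced them on an Illumina instrument, named small RNAs after miRBase entries, placed hairpins on TAIR10 and found cut sites with CleaveLand on Arabidopsis cDNA. The deposited tables hold raw read counts, the authors' normalized values (treated as a score, since they are rounded), site reads divided by the transcripts hit (a deposited signal) and the CleaveLand p-value that the authors list per site. The members and gene lists were chosen with earlier results of these data known: all entries named miR164 or MIR164, all genes cut at their sites, 8 NAC genes, the 3 sequences nearest in log2 ratio to each member, and hairpins with at least 10 reads on each arm. A deposited column with the authors' own log2 fold changes between lines was not used. Ratios of CMS over MF came from raw counts times the factor recovered from miR319a, with exact conditional binomial intervals at 95%. The level tests ran on the normalized values with equal totals of 1000000; the division of the Audic-Claverie limit by the number of entries was chosen here. Ratios within a library were tested with Fisher's exact test. Site reads were divided by cDNA-mapped reads and tested with an exact binomial test. Python 3.11.15, numpy 2.4.6 and scipy 1.17.1 were used, and the tests were tested on simulated data. Alternatives were other scalings, limits, read minimums and site filters. PCR reads are not independent molecules, so intervals cover counting error only.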

Additional observations from a re-analysis of the deposited data

How the results depend on the processing

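With 1 library per line, no replicate could be left out. No paired analysis was possible because each group held a single library. In log2 ratios of CMS over MF, miR164c fell short of the limit when scaled by mappable reads (-0.11) and turned to 0.52 when scaled by raw reads. Scaled by total miRNA reads, miR164a (0.37) and MIR164c-p3 (3.70) fell short of it, and MIR164c-p3 (4.22) also did so with a two-sided Audic-Claverie tail. The family sum moved to 1.47 with mappable reads, 2.10 with raw reads and 0.063 with total miRNA reads. The CUC1 site was not called with unscaled reads (1.58) or when scaled by all site reads (1.36); with p adjusted over pairs listed in both libraries, an alternative chosen after seeing the data, it was called with an adjusted p of 0.0120. Without category 4, or with CleaveLand p under 0.05, gene and site pairs of miR164 numbered 1 in place of 3 in CMS, 1 in place of 4 in MF, 1 in place of 2 in both and 1 in place of 5 in either. With normalized values the log2 odds ratios were 5.06 for the arms and -1.90 for the isoforms. A library's factor cancels in a ratio within that library, so little beyond rounding could differ and this is no check of them. The other alternatives run left direction and call as reported. MIR164b-p3, at 3 reads or fewer, gave no value under any of them. Depth limits MIR164c-p3, with 1 read in MF, and every site. This includes that of CUC1, with 15 reads in CMS and 5 in MF.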
